A study of Mus musculus with 22 samples.

Results

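A set of 9 genes that neutrophils are known for was followed through 22 RNA libraries of sorted cells from mouse breast tumors: *S100a8*, *S100a9*, *Ly6g*, *Retnlg*, *Mpo*, *Elane*, *Ngp*, *Camp* and *Ltf*. The 9 members were chosen by gene symbol among the 41388 genes counted, and each symbol matched 1 Ensembl gene. The tumor cells were a GFP-labeled PyMT-BO1 line, which the sample labels call MMTV-BO1, and tumors were taken 2 weeks after inoculation; the labels name the site both as orthotopic and as subcutaneous. The hosts were C57BL/6 mice, labeled as postnatal day 56, and all of them carried Osx-cre, in which a doxycycline-repressible Sp7 (Osterix) promoter drives Cre, together with the Ai9 reporter that turns on TdTomato (TdT) in cells with Cre activity and in their descendants. Of these mice, 4 were wild type (WT) for *Cdh2*, the gene of N-cadherin, and 6 were Cdh2-cKO, in which the same Osx-cre removes *Cdh2*, so that cells outside the Osx lineage keep the gene.

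Stromal cells were sorted by TdT and by CD45, the surface protein common to white blood cells. The groups were TdT single positive (TdT+;CD45-, 2 libraries per genotype), double positive (TdT+;CD45+, 3 per genotype), CD45 single positive (TdT-;CD45+, 3 per genotype) and double negative (TdT-;CD45-, 3 per genotype). Library totals ran from 16594228 to 26784003 counted reads, so that 3 counts, the limit that a count of 0 allows, corresponded to 0.103 to 0.201 normalized CPM (counts scaled to library totals corrected by TMM factors). These limits cover counting error only. The labels called the replicates biological but did not say which libraries came from the same mouse. Each genotype had more libraries than mice, so some populations must share animals, and every n below counts libraries and not mice. Only preparations with intact RNA had been sequenced.

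Neutrophils make their granule proteins in waves. Myeloperoxidase (*Mpo*) and neutrophil elastase (*Elane*) are made first, in bone marrow precursors, and are packed into primary granules. Lactoferrin (*Ltf*), the cathelicidin precursor (*Camp*) and neutrophilic granule protein (*Ngp*) follow and go to the secondary and later granules, and the mRNAs of these enzymes and antimicrobial proteins are largely gone from the mature cell. S100A8 and S100A9 form a heterodimer, calprotectin, that binds calcium and chelates metals and acts outside the cell as an alarmin, a danger signal; monocytes make it too. Ly6G is the surface protein by which mouse neutrophils are usually recognised, and *Retnlg* encodes a resistin-like secreted protein abundant in mature neutrophils.

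Some members are neighbours in the genome. In GRCm38, *S100a8* (ENSMUSG00000056054) lies on the plus strand at chr3:90669071-90670034 and *S100a9* (ENSMUSG00000056071) on the minus strand at chr3:90692632-90695721, within 26.7 kb. *Camp*, *Ngp* and *Ltf* lie within 1.20 Mb of chromosome 9. *Mpo* (chr11:87793581-87804413) overlaps an antisense gene, Gm11505. Counting was without strand, so any read over exons of both genes was ambiguous and not counted. The remaining members overlapped no other annotated gene.

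The promoters of 4 members are shown because the alarmin pair moved together across the libraries, whereas *Retnlg* and *Ngp* each peaked in a library of their own. Each is the RefSeq window on GRCm38.p6 from 250 bases before the annotated start to 50 bases after it, written 5′ to 3′ along the gene. Capitals mark the C/EBP core letters TTGCNNAA and the TATA box letters TATAAA, on either strand.
*S100a8*, chr3:90668821-90669120, plus strand: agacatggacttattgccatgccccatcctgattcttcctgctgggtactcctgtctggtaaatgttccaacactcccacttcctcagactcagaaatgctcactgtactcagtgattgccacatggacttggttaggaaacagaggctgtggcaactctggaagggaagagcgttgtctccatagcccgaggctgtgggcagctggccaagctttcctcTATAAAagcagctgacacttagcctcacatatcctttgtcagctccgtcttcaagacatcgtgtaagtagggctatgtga
*S100a9*, chr3:90695672-90695971, minus strand: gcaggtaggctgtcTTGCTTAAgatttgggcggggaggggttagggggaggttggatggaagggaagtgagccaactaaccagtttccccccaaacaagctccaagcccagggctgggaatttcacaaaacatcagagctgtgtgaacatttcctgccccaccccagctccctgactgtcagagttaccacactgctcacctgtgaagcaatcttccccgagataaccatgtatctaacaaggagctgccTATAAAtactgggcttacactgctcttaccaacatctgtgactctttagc
*Retnlg*, chr16:48872358-48872657, plus strand: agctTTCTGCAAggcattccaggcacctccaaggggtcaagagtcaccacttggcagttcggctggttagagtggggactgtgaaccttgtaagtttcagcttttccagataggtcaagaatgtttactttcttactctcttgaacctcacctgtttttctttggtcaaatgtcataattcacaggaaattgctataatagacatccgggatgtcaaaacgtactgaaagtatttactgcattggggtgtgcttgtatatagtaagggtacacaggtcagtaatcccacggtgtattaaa
*Ngp*, chr9:110419558-110419857, plus strand: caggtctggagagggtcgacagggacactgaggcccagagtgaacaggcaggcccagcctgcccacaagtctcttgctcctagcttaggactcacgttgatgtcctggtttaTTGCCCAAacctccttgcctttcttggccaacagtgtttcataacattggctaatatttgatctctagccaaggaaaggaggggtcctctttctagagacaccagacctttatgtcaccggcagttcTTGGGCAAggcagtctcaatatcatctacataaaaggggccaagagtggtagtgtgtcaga

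The TATAAA letters began 30 bases before the annotated start of *S100a8* and at the annotated start itself in *S100a9*. The C/EBP letters were found in the windows of 5 of the 9 members (*S100a9*, *Ngp*, *Ltf*, *Ly6g* and *Retnlg*), against 10.8% of all 32851 promoter windows of that length. In *Ngp* they occurred at 2 places. The letters GAGGAA, the core bound by PU.1, were in the windows of 5 members (*S100a8*, *Ltf*, *Elane*, *Mpo* and *Ly6g*) and in 28.3% of all windows. TATAAA was in the windows of 3 members and in 13.6% of all windows. C/EBP factors and PU.1 drive granulocyte genes, but a match of letters is a description and not a binding site.

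The CD45 gate was reflected in the mRNA of its own gene, *Ptprc*, at 472 to 1821 normalized CPM in the CD45+ libraries and 2.45 to 337 in the CD45- libraries. In the 1 library that stood furthest apart, the WT CD45 single positive replicate 2, 4 B cell genes summed to 3450 normalized CPM against at most 21.6 in any other CD45+ library, 8 T cell genes summed to 2782 against at most 601, and 12 macrophage genes summed to 4832 against at least 14509. The WT double negative replicate 3 held the highest leukocyte signal of the CD45- libraries, with 5 pan-leukocyte genes at 5163 normalized CPM against a CD45- median of 605. The targeted gene *Cdh2* was not lower in the libraries labeled cKO: in the TdT single positive cells it was 5.19 and 9.14 normalized CPM in WT and 13.1 and 17.2 in those labeled cKO, and in the double negative cells 4.52 to 7.47 and 12.5 to 18.4. Counts summed over the whole gene do not show which exons were lost, so they do not check the labels. In both CD45- populations the *Cdh2* values did not overlap between genotypes. The reason was not tested. Directions between genotypes below are those of the libraries labeled WT and cKO.

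Of the 9 members, *S100a8*, *S100a9*, *Ltf* and *Retnlg* were higher in CD45+ than in CD45- cells, whereas the genes that best define neutrophils and their precursors were almost unread. *Ly6g* gave 19 reads in all 22 libraries together, 11 of which had none, and *Elane* gave 22 reads with 15 libraries at 0. *Camp* gave 72 reads, 32 of them in 1 CD45- library. These 3 members did not pass the filter of more than 1 CPM in at least 2 libraries, which left 6 members tested among 15043 genes.

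**Figure D1:**
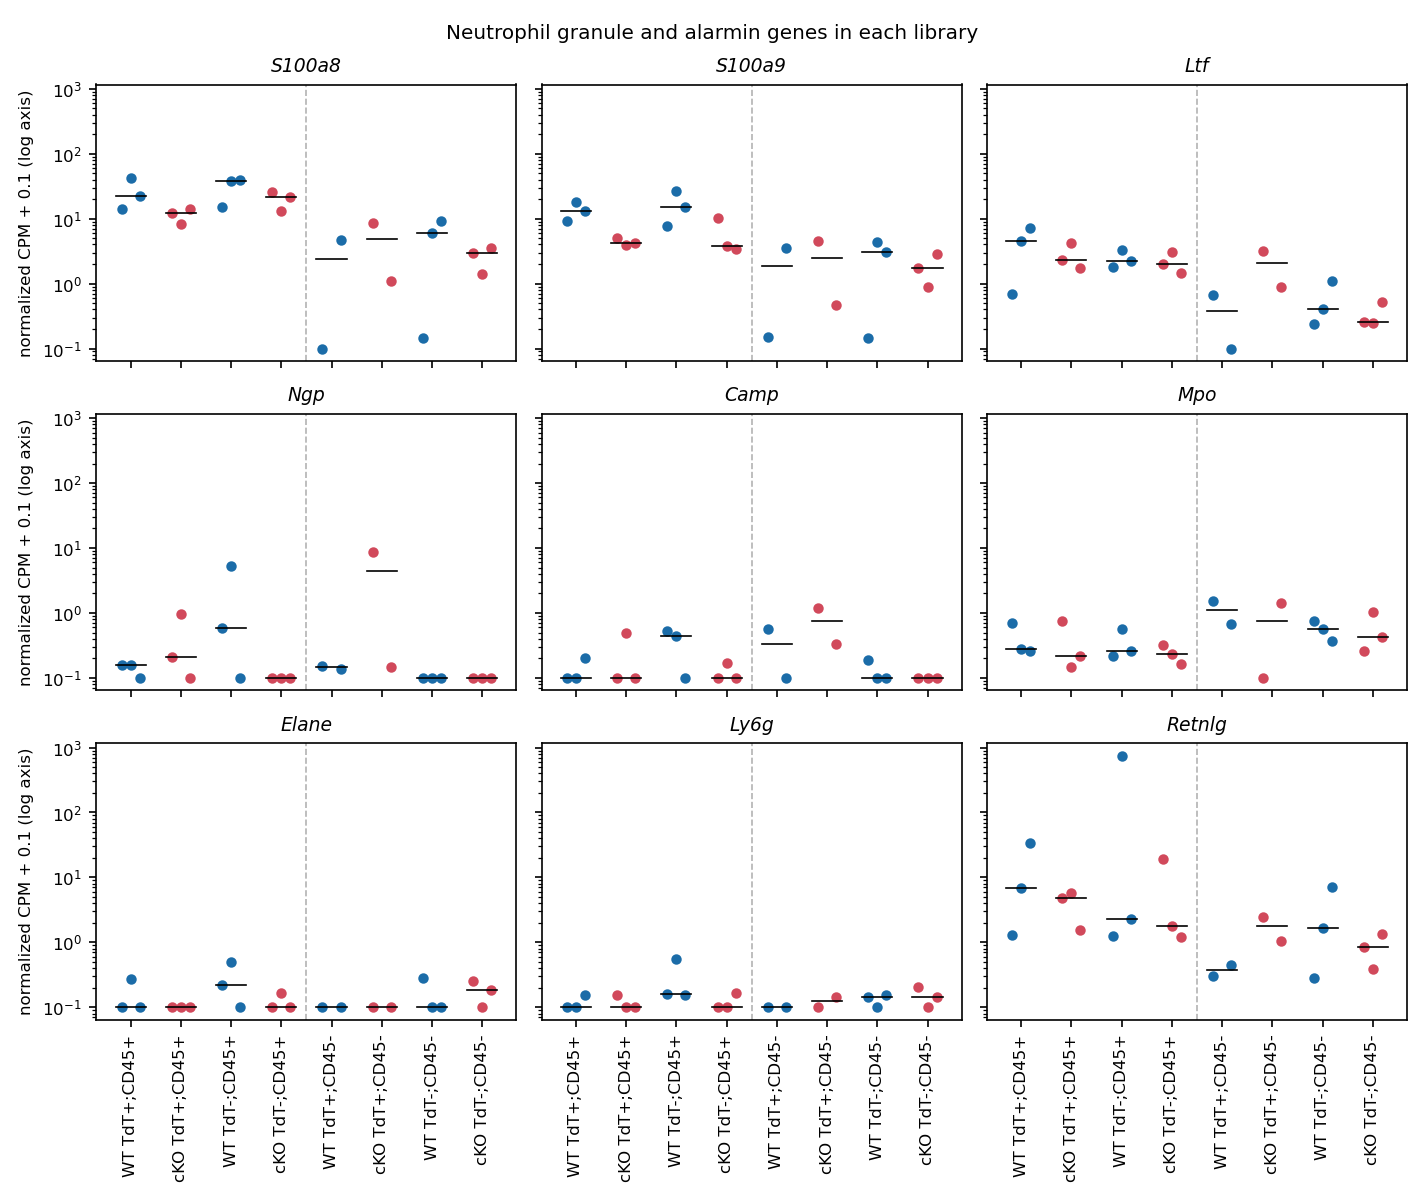
Normalized CPM + 0.1 (log axis) of the 9 members in each of the 22 libraries (points, blue WT, red cKO), by sorted population, with the group median as a bar and CD45+ groups left of the dashed line. *S100a8* and *S100a9* sat higher in the CD45+ groups, *Ly6g* and *Elane* stayed near the bottom of the axis everywhere, and *Retnlg* had a single library at 745.

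*S100a8* was read in every CD45+ library. In double positive cells it was 14.2, 42.1 and 22.01 normalized CPM in the 3 WT libraries and 12.3, 8.30 and 14.2 in the 3 labeled cKO. The CD45 single positive libraries had 14.9, 37.3 and 38.6 in WT and 26.0, 13.2 and 21.5 in cKO. All CD45+ values but 1, that of 8.30, lay above the highest CD45- library.

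In the CD45- populations *S100a8* was 0 and 4.61 in the WT and 8.53 and 1.003 in the cKO TdT single positive libraries. The double negative libraries had 0.0460, 5.94 and 8.98 in WT and 2.89, 1.31 and 3.42 in cKO. The 2 CD45- libraries with at most 1 read of *S100a8* were also those with the least pan-leukocyte mRNA, 207 and 170 normalized CPM summed over 5 genes. The 2 highest in *S100a8*, at 8.53 and 8.98, were those with the most, 3543 and 5163. Between these extremes the order was not strict. The cKO TdT single positive replicate 2 had a sum of 1660 with *S100a8* at 1.003. The WT double negative replicate 2 had 825 with *S100a8* at 5.94. The part of leukocyte carry-over in the CD45- levels was not tested. With RNA of whole sorted populations, fewer cells of a type and less RNA per cell cannot be told apart.

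*S100a9* was also read in every CD45+ library. It was 9.15, 18.01 and 13.1 normalized CPM in WT and 4.97, 3.83 and 4.09 in cKO double positive cells. Among the CD45 single positive libraries WT had 7.52, 26.6 and 14.9 and cKO had 10.2, 3.74 and 3.27. The CD45- libraries lay between 0.0460 and 4.39 (median 2.17), and 8 of the 12 CD45+ libraries lay above that whole range.

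Per kilobase of exon, *S100a8* had a median of 46.4 RPKM (normalized CPM divided by exonic length) over the 12 CD45+ libraries, above 91.0% of the genes tested, and *S100a9* had 15.97, above 79.8%. *Retnlg* stood at 5.72, *Ltf* at 0.786 and *Mpo* at 0.0467 on the same scale, against a median of 2.74 over the tested genes. The alarmin mRNAs were thus the most abundant members per length in CD45+ cells, and *Mpo* stood above 8.30% of tested genes.

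By edgeR's quasi-likelihood test across all genes, *S100a8* was 6.00-fold higher in CD45+ than in CD45- cells (log2 2.59, SE 0.62, adjusted p = 0.00152, n = 12 and 10) and *S100a9* was 4.18-fold higher (log2 2.06, SE 0.59, adjusted p = 0.00551). *Ltf* was 5.31-fold higher (log2 2.41, SE 0.54, adjusted p = 0.000827) and *Retnlg* 17.4-fold higher (log2 4.12, SE 1.08, adjusted p = 0.00291). The size of *Retnlg* rested on the WT CD45 single positive replicate 2, without which its log2 fold change was 2.32. Voom did not call *Retnlg* (adjusted p = 0.135), and DESeq2 gave it no p. By edgeR 4 of the 6 tested members thus rose with CD45 and none fell. The comparison called 63.7% of all genes tested, 32.6% as higher and 31.1% as lower. As a description of the 6 that passed the filter, the median log2 fold change was 2.24, beside 0.06 over all genes tested. That median includes the fitted value of *Ngp*, which rests on the prior count. *Mpo* had a log2 fold change of -1.37 (SE 0.60, adjusted p = 0.0552), which did not pass.

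The sizes of *S100a8*, *S100a9* and *Ltf* rested on few CD45- libraries. Without the WT TdT single positive replicate 2, the log2 fold changes of *S100a8* and *S100a9* became 4.71 and 3.30, and without the cKO TdT single positive replicate 1 *S100a9* had 2.74. Without the WT TdT single positive replicate 1 *Ltf* had 3.76. The library left alone in the WT TdT single positive group then had no read of *S100a8* or *Ltf* and 1 of *S100a9*, so the values without a WT library rest largely on the prior count of the fit and are no bounds. In the WT libraries alone *S100a8* had 3.04 (adjusted p = 0.0567), and in the cKO libraries alone *S100a9* had 1.23 (adjusted p = 0.0789).

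*Ltf*, the iron-binding protein of secondary granules, reached 0.594, 4.50 and 7.02 normalized CPM in WT and 2.21, 4.08 and 1.62 in cKO double positive cells. The CD45 single positive libraries had 1.34 to 3.21. Of the 10 CD45- libraries 7 lay below every CD45+ library, and the highest of them, the cKO TdT single positive replicate 1, had 3.12. The groups overlapped.

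*Mpo* stayed low, at 0.0485 to 0.662 normalized CPM in CD45+ and 0 to 1.43 in CD45- libraries, or at most 29 reads. Its highest values were in the TdT single positive cells, 1.43 and 0.581 in WT and 0 and 1.32 in cKO. Without the cKO TdT single positive replicate 2 its log2 fold change for CD45+ over CD45- cells turned to 0.30, a value that rests on the prior count because the library left in that group had no read. Its call passed under some alternatives and failed under others, and any reads ambiguous with the antisense gene are missing from its counts.

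*Ngp* was a gene of 2 libraries. It gave 255 reads (8.74 normalized CPM) in the cKO TdT single positive replicate 1 and 91 reads (5.21) in the WT CD45 single positive replicate 2, which together held most of its 379 reads. The other 20 libraries had 18 reads or fewer, and 12 of all 22 had none. In its top library *Camp* (32 reads) also had its highest value and *Ltf* its highest of the CD45- libraries, while *Mpo* and *Elane* were at 0. Since whole groups had no read of *Ngp*, its fitted fold changes rest on the prior count and are not given.

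*Retnlg* was dominated by the library with lymphocyte transcripts. The WT CD45 single positive replicate 2 held 13002 of its 14768 reads, 745 normalized CPM, beside 1.14 and 2.15 in the other WT replicates and 19.1, 1.67 and 1.09 in the cKO ones. Double positive cells had 1.19, 6.78 and 33.6 in WT and 4.80, 5.63 and 1.44 in cKO. In CD45- libraries *Retnlg* ran from 0.184 to 7.10, the highest being the WT double negative replicate 3.

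*Retnlg* was highest in a library that was also highest in T cell transcripts. The 3 CD45+ libraries highest in *Retnlg*, at 745, 33.6 and 19.1 normalized CPM, had summed T cell levels of 2782, 601 and 108, and the other CD45+ libraries had 32.9 to 263, so that the order was not strict. In the top library *S100a8* and *S100a9* were 0.886 and 1.48 times the highest other CD45+ value, against 22.2 times for *Retnlg*. The *Ly6g* count was also highest there, at 8 reads (0.458 normalized CPM). Of the 16 mature neutrophil genes described below, *G0s2*, *Hdc* and *Cxcr2* were 9.66, 3.71 and 2.99 times the highest other CD45+ value. They are named outside the naming rule, chosen after their values were seen. *Trem1*, *Il1b* and *Fpr2* were 0.266, 0.230 and 0.227 times that value. The whole list summed to 2043 normalized CPM in this library, against a CD45+ median of 2884. Without this library the log2 fold change of *Retnlg* between CD45+ and CD45- cells was 2.32 (adjusted p = 0.00893, edgeR), and without the cKO CD45 single positive replicate 1 it was 3.52. The part of lymphoid cells or of neutrophils in these values was not tested.

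**Figure D2:**
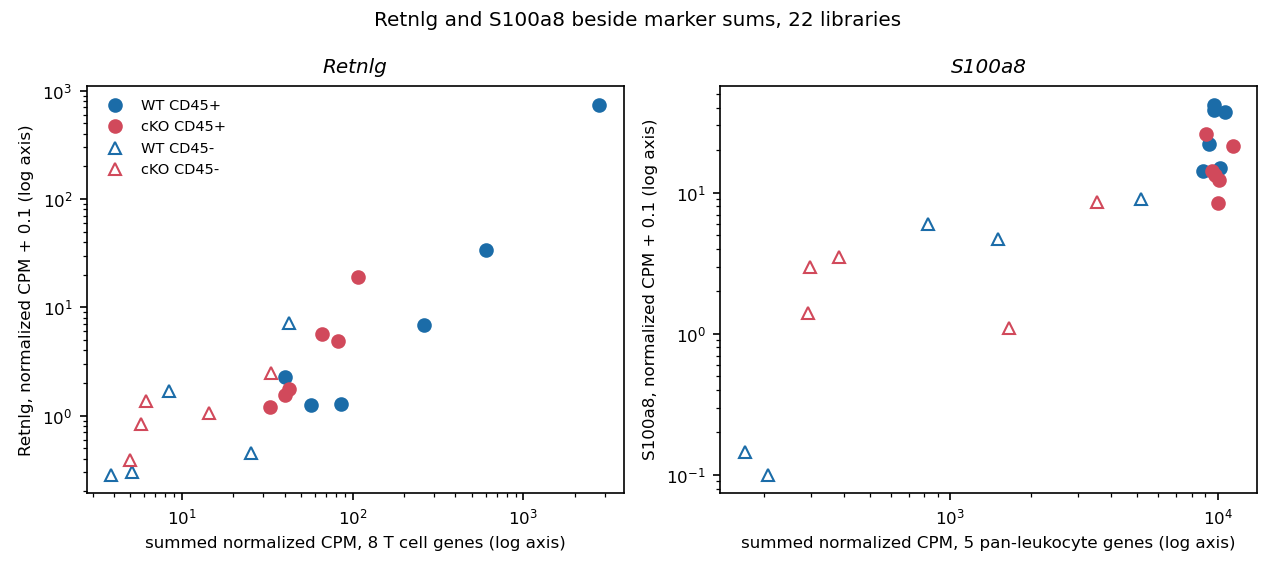
Left, *Retnlg* against the summed level of 8 T cell genes, and right, *S100a8* against that of 5 pan-leukocyte genes, in normalized CPM (log axes, 0.1 added to each member) for 22 libraries (circles CD45+, triangles CD45-, blue WT, red cKO). The library with *Retnlg* at 745 is also the one with T cell genes at 2782. The 2 triangles lowest in *S100a8* are those lowest in pan-leukocyte genes, but the order of the other triangles is not strict.

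The genes most like each member across the 22 libraries were taken by Pearson's r of log2 CPM, as a description, since the libraries fall into CD45+ and CD45- clusters and share their depth. *S100a8* and *S100a9* were each other's nearest gene among all tested (r = 0.96, and 0.80 within the 12 CD45+ libraries). *S100a8* was followed by *Exoc6* (0.96) and *Mctp1* (0.95), which had 0.65 and 0.40 within the CD45+ libraries. *S100a9* was followed by *Ccdc125* (0.92) and *Nt5dc1* (0.92), with 0.51 and 0.53 within the CD45+ libraries. *Retnlg* was nearest to *Txk* (0.95), a kinase of T cells, to *Ifng* (0.94), the interferon made by T and NK cells, and to *Samd3* (0.94). Within the 12 CD45+ libraries these 3 had r of 0.96, 0.98 and 0.97 with *Retnlg*, against 0.45 for *S100a8* and 0.67 for *S100a9*. The WT CD45 single positive replicate 2 was far above the other libraries in these genes too, at 77.3 normalized CPM for *Txk*, 39.0 for *Ifng* and 20.3 for *Samd3*, against CD45+ medians of 1.02, 0.150 and 0.369. Without it the 3 genes had r of 0.90, 0.88 and 0.89 with *Retnlg* over 21 libraries. Over 11 CD45+ libraries they had 0.88, 0.95 and 0.93, where *S100a8* and *S100a9* had 0.25 and 0.46. The CD45+ medians of *Ifng* and *Samd3* lay at or near the limit of 3 counts, and their CD45- medians were 0.0402 and 0. Their r values are therefore weak. The WT double positive replicate 3, next highest in *Retnlg* (33.6) and in summed T cell genes (601), stayed among the 11. The r values without that library were not computed.

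*Ltf* was nearest to *H2-K2* (0.90), *4930445N18Rik* (0.87) and *4933439K11Rik* (0.87), *Mpo* to *6430562O15Rik* (0.86), *Proca1* (0.79) and *Invs* (0.78), and *Ngp* to *Tecpr1* (0.75), *Khnyn* (0.72) and *Elf4* (0.72). Within the CD45+ libraries the 3 genes of *Ltf* had 0.21, 0.70 and 0.45. Without the WT CD45 single positive replicate 2 those of *Ngp* fell to 0.60, 0.57 and 0.57 over 21 libraries. *Mpo* and *Ngp* have so few reads that their values are weak.

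Other granule genes were read from 2 lists, in the CD45+ against CD45- comparison where 32.6% of all genes tested rose and 31.1% fell. Of 5 further primary granule genes 2 were tested and both rose in CD45+ cells, *Cst7* (cystatin F, log2 2.87, adjusted p = 0.000389) and *Prtn3* (proteinase 3, log2 1.88, adjusted p = 0.0117), while *Ctsg*, *Ms4a3* and *Prss57* did not pass the filter. Of 9 further secondary and later granule genes 6 were tested, of which 4 rose, 1 fell and 1 was not called. Those with the largest changes were *Cebpe* (log2 4.35), the transcription factor of the secondary granule program, *Chil3* (log2 4.02), which macrophages also make, and *Mmp8* (log2 3.30). *Fcnb*, *Itgb2l* and *Olfm4* did not pass. The gene that fell was *Lcn2* (log2 -1.89, adjusted p = 0.000229), an iron-carrier-binding protein that epithelial cells make too; it is named although outside the naming rule, chosen after its value was seen.

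Genes of mature neutrophils, many of them shared with monocytes and macrophages, made up the longest list. Of the 16 genes 14 were tested and 12 rose in CD45+ cells, led by *Il1b* (log2 4.06), *Trem1* (log2 3.87) and *Fpr2* (log2 3.83), with a list median of 2.87 beside 0.06 over all genes tested. In this comparison 32.6% of all genes tested rose. Of the list, *Stfa2l1* and *Mrgpra2b* did not pass the filter, at 39 and 5 reads over the 12 CD45+ libraries. Both alarmin receptor genes rose, *Tlr4* (log2 2.50, adjusted p = 1.77e-06) and *Ager*, the receptor RAGE (log2 2.07, adjusted p = 0.00460). *Ager* stayed low, at 0.194 to 2.41 normalized CPM in the CD45+ libraries, beside 94.1 to 192 for *Tlr4*. All 12 macrophage genes rose as well, and their sum in the CD45+ libraries had a median of 16423 normalized CPM.

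The other marker lists moved with the gate in the same comparison, where 32.6% of all genes tested rose and 31.1% fell. All 5 pan-leukocyte genes, all 8 T cell genes and 2 of 3 tested B cell genes rose in CD45+ cells. All 7 fibroblast genes and all 4 endothelial genes fell, and of 7 tested luminal epithelial genes 6 fell and 1 rose. The fibroblast sum was 62.2 to 216 normalized CPM in CD45+ and 4276 to 59753 in CD45- libraries.

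Within the CD45+ cells no member was called by TdT. By edgeR's quasi-likelihood test of double positive against CD45 single positive cells, none of the 6 tested members was called, where 0.00665% of genes were (1 gene of 15043, with 610 at an unadjusted p under 0.05). None of the members had an unadjusted p under 0.05, and voom and DESeq2 called none. DESeq2 gave *Retnlg* no p here or in any comparison below, so its lack of a call there is no test of this gene. The log2 difference was -0.51 (SE 0.75) for *S100a8*, -0.35 (SE 0.73) for *S100a9*, 0.58 (SE 0.64) for *Ltf* and 0.62 (SE 0.86) for *Mpo*. That of *Retnlg* was -2.52 (SE 1.22) and turned to 1.09 without the WT CD45 single positive replicate 2. With 1 library left out *Mpo* ran down to -0.21, without the cKO double positive replicate 1, and *S100a9* from -0.52 to 0.00432.

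Between the CD45- populations, 1.89% of genes were called by edgeR (284 of 15043) and no member, of which 1, *Ngp*, had an unadjusted p under 0.05. TdT single positive over double negative cells gave log2 differences of -0.08 (SE 0.86) for *S100a8*, 0.04 (SE 0.84) for *S100a9*, 1.08 (SE 0.80) for *Ltf*, 0.78 (SE 0.84) for *Mpo* and -1.11 (SE 1.57) for *Retnlg*. These values rested on single libraries. Without the cKO TdT single positive replicate 1 *S100a8* had -1.21 and *S100a9* -1.31, and without the WT TdT single positive replicate 2 they had -4.33 and -2.44. *Ltf* turned to -1.63 without the WT TdT single positive replicate 1 and *Mpo* to -2.55 without the cKO TdT single positive replicate 2. Except for those without the cKO replicate 1, they rest largely on the prior count, since the library left in the group had 0 reads, or 1 of *S100a9*. *Ltf* had opposite signs in the genotypes fitted alone, with a log2 difference of 2.96 in cKO (adjusted p = 0.0261) and -0.80 in WT (adjusted p = 0.846) libraries. Among the related genes *Mmp9*, gelatinase B of the late granules and of many stromal cells, was higher in TdT single positive cells (log2 2.82, adjusted p = 0.00547). Voom and DESeq2 called no member here either.

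Both alarmin genes had lower medians in CD45+ libraries labeled cKO than in WT, and neither difference passed the test. The median *S100a9* was 14.01 normalized CPM in the 6 WT and 3.96 in the 6 cKO libraries, and 5 of the 6 cKO values lay below every WT value. The median *S100a8* was 29.7 and 13.7, with 4 of 6 cKO values below every WT value. The edgeR log2 difference was -1.58 for *S100a9* (SE 0.75, unadjusted p = 0.0494, adjusted p = 0.577) and -0.88 for *S100a8* (SE 0.75, adjusted p = 0.781).

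No gene passed in this comparison by edgeR (0% called, 1300 genes at an unadjusted p under 0.05), voom called none and DESeq2 called 83 genes, no member among them. Of the 6 tested members 2 had an unadjusted p under 0.05, *S100a9* and *Retnlg*. *Retnlg* had -3.45 (SE 1.26, adjusted p = 0.462), and 0.17 without the WT CD45 single positive replicate 2. *Ltf* had -0.40 (SE 0.64) and *Mpo* -0.47 (SE 0.86). No T cell, B cell or macrophage marker was called here by edgeR. The 8 T cell and 3 tested B cell genes all had negative differences and unadjusted p under 0.05, with list medians of -3.72 and -4.13, and the macrophage list had a median of 0.21. Without the WT CD45 single positive replicate 2 the medians were -1.10, 0.14 and -0.03, and no T or B cell gene had an unadjusted p under 0.05. The part of these cells in the member values was not tested.

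**Figure D3:**
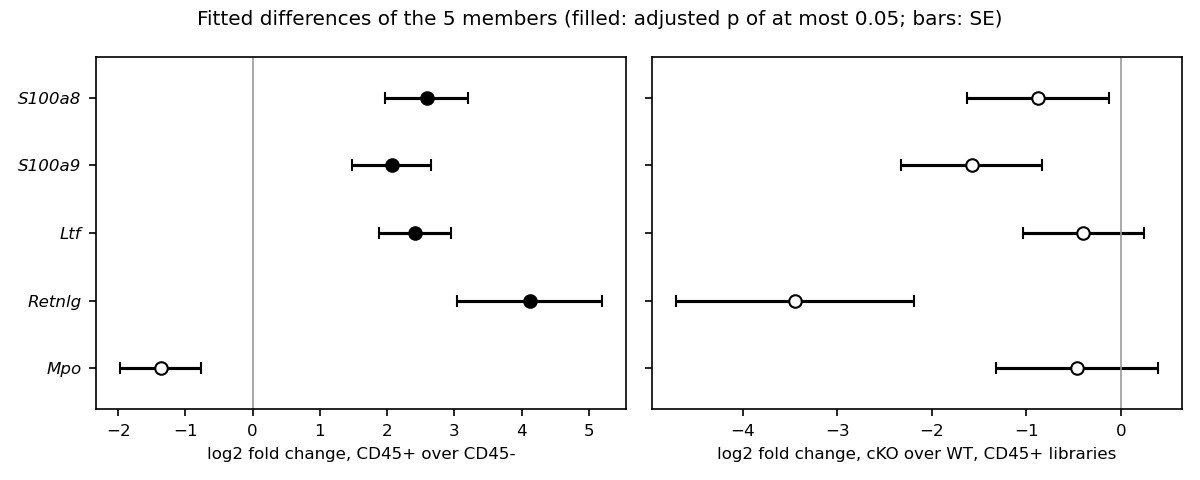
Fitted log2 fold changes (points) with SE (bars) of 5 members, left for CD45+ over CD45- cells and right for cKO over WT in CD45+ libraries, filled where the adjusted p was at most 0.05. Of these, 4 were called in the left comparison, where 63.7% of all genes tested were, and none in the right, where 0% were. In the right comparison *S100a9* stood at -1.58 and *S100a8* at -0.88.

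The balance of the alarmin subunits was compared within each library, where depth and normalization cancel; this ratio was chosen after the values had been seen. Reads of *S100a9* over *S100a8* per exonic base were 0.484, 0.321 and 0.447 in WT and 0.303, 0.347 and 0.216 in cKO double positive libraries. In CD45 single positive libraries they were 0.380, 0.535 and 0.290 in WT and 0.294, 0.213 and 0.114 in cKO. All 6 cKO ratios lay below the WT median of 0.413, and 3 of them below every WT ratio.

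The geometric means were 0.400 in WT and 0.234 in cKO CD45+ libraries, a log2 difference of -0.78 (exact permutation test over 6 and 6 libraries, two-sided, p = 0.0152, and 0.0758 after Benjamini-Hochberg adjustment over the 5 comparisons of this ratio). Without the WT CD45 single positive replicate 2 it was -0.69 (exact p = 0.0303, adjusted 0.0758). Within the double positive and the CD45 single positive cells it was -0.54 and -1.02, each with an exact p of 0.200, where 3 libraries against 3 cannot go below 0.1. In the CD45- libraries with 3 or more reads of each gene the difference was -0.03 (3 WT and 5 cKO libraries, exact p = 0.893). The adjusted value did not pass 0.05, and the adjustment does not cover the choice of the ratio after the values had been seen. WT mice were fewer than the 6 WT libraries, so some of these share a mouse, which would make p too small.

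**Figure D4:**
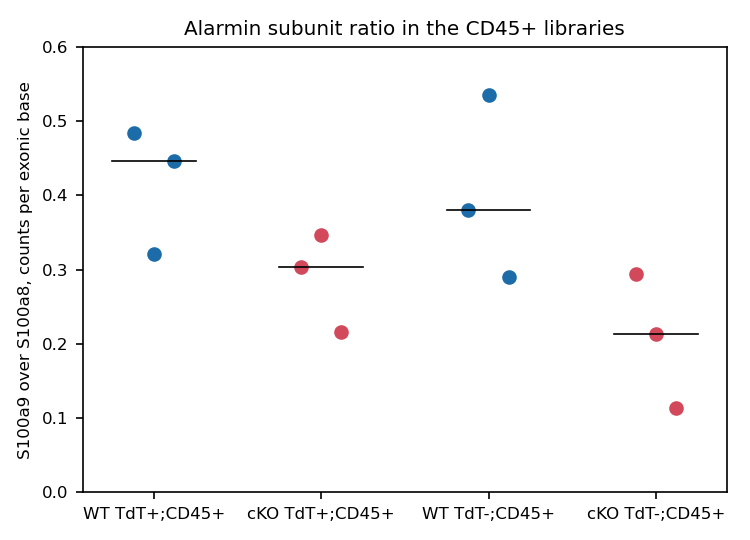
Ratio of *S100a9* to *S100a8* reads per exonic base (y axis from 0) in each of the 12 CD45+ libraries (points, blue WT, red cKO) with the group median as a bar. The cKO ratios run from 0.114 to 0.347 and overlap the WT ratios, 0.290 to 0.535.

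In the CD45- cells the genotypes gave log2 differences of 0.03 (SE 0.86) for *S100a8*, -0.03 (SE 0.84) for *S100a9*, 0.95 (SE 0.80) for *Ltf*, -0.29 (SE 0.85) for *Mpo* and 0.31 (SE 1.53) for *Retnlg*. Here too single libraries set the values. Without the cKO TdT single positive replicate 1 *S100a8* had -1.09, *S100a9* -1.38, *Mpo* 0.21 and *Retnlg* -0.09. Without the WT TdT single positive replicate 2 *S100a8* and *S100a9* had 4.28 and 2.46, without the WT TdT single positive replicate 1 *Ltf* had 3.66, and without the cKO TdT single positive replicate 2 *Mpo* had -3.63, all values that rest largely on the prior count as above. By edgeR 0% of genes were called (1541 at an unadjusted p under 0.05, none of them a tested member), voom called none and DESeq2 called 127, none of them a member. The difference of the CD45 effect between genotypes was -0.91 (SE 1.14) for *S100a8* and -1.55 (SE 1.12) for *S100a9*, in a comparison with 0% of genes called by edgeR and 1157 at an unadjusted p under 0.05, none of them a tested member; voom called 0 and DESeq2 31 genes, none of them members. Without the cKO TdT single positive replicate 1 these differences were 0.22 and -0.20, and without the WT TdT single positive replicate 2 they were -5.16 and -4.03, again largely on the prior count. The difference of the double positive over CD45 single positive effect was -0.59 (SE 1.495) and -0.13 (SE 1.46), with 0% of genes called by edgeR, voom and DESeq2 alike and 656 at an unadjusted p under 0.05 in edgeR, *Ngp* being the member among them. With 1 library left out they ran from -0.89 to -0.06 and from -0.68 to 0.58.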

How the data were processed

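Per the study's methods and the submitters' processing notes, the authors made cDNA from 10 ng of total RNA with a SMARTer Ultra Low kit, which does not mark strand, sequenced single-end reads, aligned them with STAR (2.0.4b) to GRCm38 and counted uniquely aligned, unambiguous reads per gene with featureCounts. Reads shared by near-identical genes were therefore not counted. The deposited files hold raw read counts, which were used, and the authors' CPM and RPKM, which were read only to check that they follow from the counts. After 355 ribosomal RNA genes had been removed, genes above 1 CPM in at least 2 libraries were tested with edgeR (4.0.16, R 4.3.3) by glmQLFit and glmQLFTest, with TMM factors, 8 group means and Benjamini-Hochberg adjustment over 15043 genes. Calls needed an adjusted p of at most 0.05. limma voom (3.58.1) and DESeq2 (1.42.0) were alternatives, with another normalization, filter, fold threshold, replicate block, single genotypes and libraries left out. The CD45+ against CD45- fit was tested with each tool on simulated counts. A prior count of 2 was used for log2 CPM. Replicates differed by more than sampling noise (chi-square per degree of freedom 49.7 to 409). Named genes were the 9 members, at most 3 called genes of each list by size of change, and the 3 genes most like each member. The members and lists were chosen with earlier results of these data known.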

Additional observations from a re-analysis of the deposited data

How the results depend on the processing

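Of 990 values of single members under the alternatives, 976 kept their side of the threshold, and no called value changed sign. Most of these values came from comparisons that called no member, where staying uncalled says little. Of the 148 values for CD45+ against CD45- cells, *Mpo* changed side in 10 and *S100a8*, *S100a9* and *Retnlg* in 1 each. Among values that did not pass, 62 had another sign. In CD45+ against CD45- cells 4 to 5 members were called over the 22 fits that left out 1 library each, the fifth being *Mpo*, which also passed with DESeq2, RLE factors and without both the WT CD45 single positive replicate 2 and the WT double negative replicate 3, the libraries that stand apart (adjusted p of 0.0328, 0.0453 and 0.0298). *Retnlg* did not pass with voom (adjusted p = 0.135), and DESeq2 gave it no p. This comparison called 3717 genes where a log2 fold change of at least 2 was also required and 5592 in the WT libraries alone. For double positive against CD45 single positive cells DESeq2 called 6 genes and the WT libraries alone 0. For TdT single positive against double negative cells, 284 genes became 39 with the fold threshold, 710 with voom, 986 with DESeq2, 92 with no filter, 1509 without both libraries that stand apart, 0 in WT and 1150, with 1 member, in cKO libraries alone, and 30 to 872 with 1 library left out. Between genotypes DESeq2 called 83 genes in CD45+ and 127 in CD45- cells and 31 for the difference of the CD45 effect. Without both libraries 79 were called in CD45- cells. With 1 library left out these were 0 to 1, 0 to 95 and 0 to 15. The cause of these shifts was not tested. Where a group was left with 1 library, that library was assumed to vary like the others. The correlations and marker medians without the WT CD45 single positive replicate 2 were chosen after seeing the data.

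Replicate numbers were not taken to pair the samples, since 10 of 30 same-numbered pairs, and not all, had a correlation of deviations over 0.1 (median 0.05). Of 60 differently numbered pairs 6 did (median -0.02). Of 22 libraries 12 correlated best with their own number, a hint from the data and not from the design. Deviations were taken from the means of small groups, so same-numbered and differently numbered values offset each other by construction. They are not separate evidence, and the number expected by chance for the 12 was not computed. With the replicate block, 187 genes were called for TdT single positive against double negative cells, and 4 members for CD45+ against CD45- cells; the block changed no call of a member. Depth limits *Ly6g*, *Elane*, *Camp* and *Ngp*, whose levels lie near the limit of 3 counts in most libraries.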
